A study of Mus musculus with 69 samples.

Results

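The genes described here are 9 genes of myelin and of the oligodendrocyte lineage: Mbp, Mobp, Mog, Mag, Cnp, Cldn11, Olig1, Olig2 and Sox10. They were chosen by symbol, and all 9 were found among the 55964 gene identifiers counted. The 69 libraries were bulk RNA sequencing of hypothalamus, pituitary and ovary from female C57BL/6J mice in proestrus. WT mice carry the normal Zeb1 gene, Zeb1_200H mice (200H) carry 1 mutated allele and Zeb1_200M mice (200M) carry the mutated allele on each chromosome. The mutation changes the sites for the miR-200a and miR-200b families in the Zeb1 3′ untranslated region and leaves the coding sequence as it was. The change is in the germ line and so present in every cell, the mice descend from 2 embryonic stem cell lines, and replicates are different mice. The young cohort was virgin and aged 8 to 12 weeks, and the older cohort had been through a breeding trial and was aged 28 to 36 weeks. Each tissue had 4 mice per genotype and cohort, except 3 for young WT pituitary, older 200M pituitary and older 200M hypothalamus.

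Oligodendrocytes wrap axons of the central nervous system in myelin, a membrane rich in lipid that is held together by a few abundant proteins. Sox10, Olig1 and Olig2 are transcription factors of the lineage, from the precursor cell to the myelinating cell. Mbp and Mobp encode basic proteins that lie on the inner face of the membrane, Cnp encodes an enzyme of the non-compact myelin, and Cldn11 encodes the claudin of the tight junctions between its layers. Mag sits next to the axon and Mog on the outermost surface of the sheath. Mbp also gives rise to longer Golli transcripts, which are made outside oligodendrocytes too, and counts per gene cannot tell these from the transcripts of classic myelin basic protein. Cldn11 is likewise made outside the brain, as in Sertoli cells of the testis. Hypothalamus holds myelinated fibres. The anterior pituitary is an endocrine epithelium that carries no central myelin, and the ovary is peripheral tissue. The paper describes the posterior pituitary as made mostly of endings of hypothalamic neurons. Pituitary counts used here do not separate the lobes. In bulk libraries fewer cells of a type and less RNA per cell cannot be told apart.

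In GRCm38 coordinates of the GENCODE annotation, Olig2 at chr16:91225457-91228677 and Olig1 at chr16:91269772-91271933 are close neighbours on the plus strand. Cnp is at chr11:100574904-100591729, Cldn11 at chr3:31149920-31164324 and Mobp at chr9:120149707-120181484, each on the plus strand. Mag at chr7:30899176-30914873, Mog at chr17:37010743-37023398 and Sox10 at chr15:79154908-79165240 are on the minus strand. Exons of Cnp overlap exons of Dnajc7, and exons of Olig1 overlap Gm15966, each on the other strand. The older libraries were counted without regard to strand, so reads of those overlaps cannot be assigned to 1 gene there. Exons of Mobp overlap Gm38642 on its own strand, so Mobp counts are uncertain for that overlap in each cohort.

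Of the 2 microRNA families whose sites were mutated, 1 microRNA each is printed here as RefSeq gives it, with the seed (bases 2 to 8) in capitals. The site of miR-141 is that of miR-200a, and the site of miR-200c and miR-429 is that of miR-200b. They are printed because the members were searched for the same sites.
mmu-miR-200a-3p: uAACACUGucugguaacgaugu
mmu-miR-200b-3p: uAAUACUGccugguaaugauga
A site for the first seed reads CAGTGTT and a site for the second reads CAGTATT. In the longest annotated 3′ untranslated region of each member, Cldn11 held 1 match, to CAGTATT at position 865 of 1019, and the other 8 members held none of either. CAGTATT was present in 12.9% and CAGTGTT in 16.6% of 21685 genes searched in the same way. The match is shown in capitals.
Cldn11 site: agaccatgaagCAGTATTgtttaaca

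RefSeq promoter windows, from 250 bases before to 50 bases after a start site in GRCm38.p6, were at hand for 6 of the 9 members. They were searched on both strands for CAGGTG and CAGGTA, E-box letters that ZEB1 is known to bind, and for ACAAAG, letters bound by SOX factors. Taking 1 window per gene, one or other E-box was present in 29.3% of 27025 promoter windows and ACAAAG in 18.7%. For the members every window was searched, and Mag had more than 1, so its matches are not comparable with those shares. The Mobp window held ACAAAG 6 times and Cnp held 1 ACAAAG and 1 CAGGTG. Mag had ACAAAG in 2 overlapping windows and CAGGTG in another window, and the windows of Mog, Olig2 and Cldn11 held none of these. Stretches around some of the matches are printed with the match in capitals, where CTTTGT is ACAAAG and CACCTG is CAGGTG read on the other strand.
Mobp, chr9:120149598-120149627, plus strand: actctgtgtggcCTTTGTgcgggcCTTTGT
Cnp, chr11:100574760-100574789, plus strand: aacttttaaggaACAAAGaggtggcgtggc
Cnp, chr11:100574803-100574832, plus strand: gcattgagagtcCAGGTGtgcttttacttt
Mag, chr7:30914357-30914386, minus strand: gcaggctgtgaaCACCTGggcacacagtga

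Total counts per library ran from 3321845 to 5143128 in young and from 10189605 to 13917738 in older hypothalamus, from 7560888 to 13342430 in young and from 4527753 to 12957678 in older pituitary, and from 6337205 to 12896366 in young and from 7985206 to 14655095 in older ovary. Mbp lies at chr18:82475146-82585637 on the plus strand of GRCm38, on the same chromosome as Zeb1. Zeb1 itself was higher in 200M than in WT pituitary, by 0.52 on the log2 scale in young mice (SE 0.0612, adjusted p = 2.386e-05) and by 0.55 in older mice (SE 0.0855, adjusted p = 0.000833). Its log2 difference was -0.17 in young and -0.26 in older hypothalamus and -0.06 and -0.22 in ovary, none of them past the threshold. RNA of the young cohort was depleted of ribosomal RNA and counted by strand, that of the older cohort was poly(A)-selected, so cohort, age, breeding and chemistry cannot be told apart.

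Hypothalamus expressed all 9 genes in every library. Levels between genes are compared here as CPM, counts scaled to a library total of 1e+06, per kilobase of exon (CPM per kb), as means over the 4 WT libraries. In young WT hypothalamus Mbp led with 87.3 and Cldn11 followed with 79.8, and the libraries of that pair overlapped. Cnp with 33.1, Mobp with 33.0, Mog with 28.6 and Olig1 with 26.3 formed a middle range in which each gene overlapped its neighbour in the order. Mag with 11.8 and Sox10 with 11.4 overlapped each other, and Olig2 with 8.51 lay below both in every WT library.

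The older WT hypothalamus, normalised apart from the young, had another order. Mbp stood alone at 298 CPM per kb. Mobp with 149 and Cnp with 106 overlapped, as did Olig1 with 71.9, Cldn11 with 55.5 and Mag with 50.6. Mog at 35.9 lay apart from those above and below it, and Sox10 at 17.2 and Olig2 at 15.7 overlapped each other at the bottom. The ratio of the older to the young WT mean in CPM was 4.52 for Mobp, 4.3 for Mag, 3.41 for Mbp and 3.22 for Cnp. It was 2.73 for Olig1, 1.84 for Olig2, 1.51 for Sox10 and 1.25 for Mog. Cldn11 was the only member with a ratio under 1, at 0.696. No test of these ratios was made, because the cohorts also differ in chemistry and counting.

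**Figure D1:**
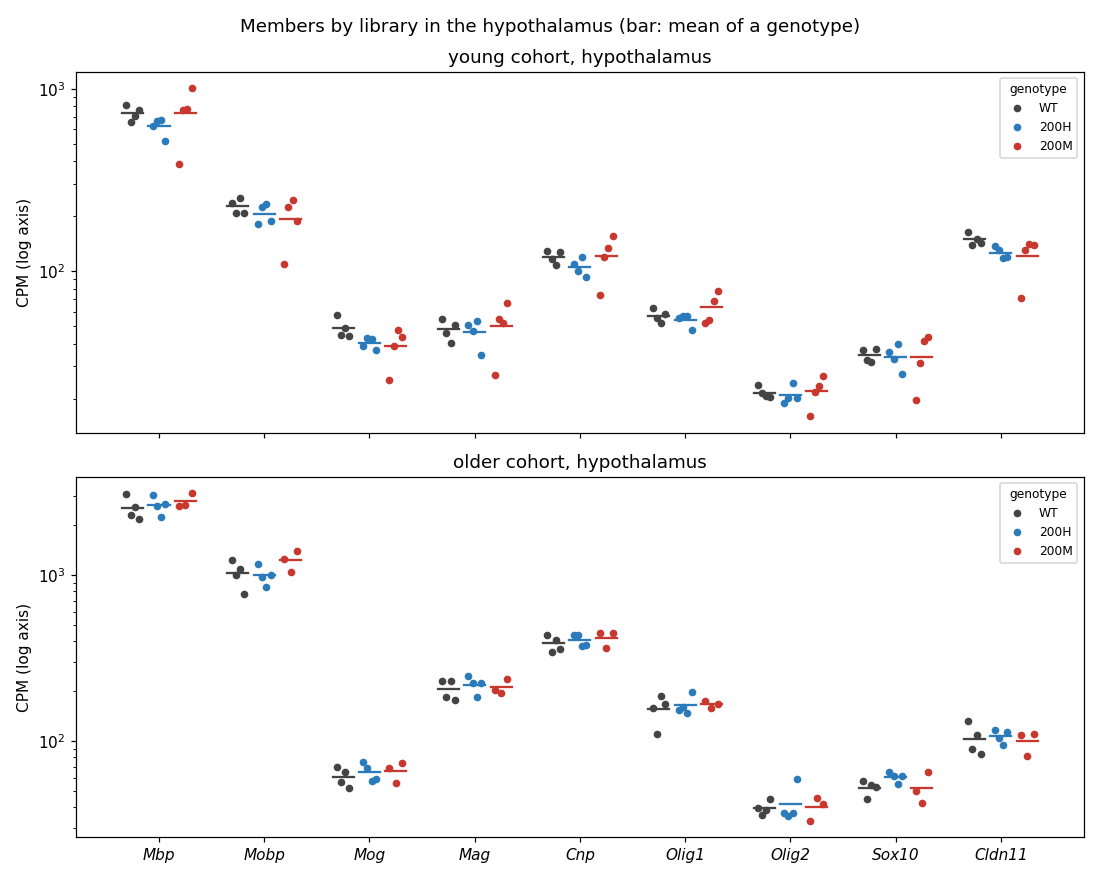
CPM of the 9 genes in each hypothalamus library, by cohort and genotype, on a log axis, with 1 point per mouse and the genotype mean as a bar. In young 200M mice 1 library lies below the others of its group for most genes, and in older mice the genotypes overlap for every gene.

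The first question was whether homozygous loss of the miR-200 sites changed these genes in hypothalamus. It was not detected in either cohort. In young mice 200M against WT, 0 of 9 members were called at an adjusted p under 0.05 by edgeR, against 0.02% of all genes tested. At an unadjusted p under 0.05 there were 2 of 9 members against 5.65% of all genes, and DESeq2 called 0 members and 0 genes in all. In young WT hypothalamus Mbp measured 814, 660, 712 and 770 CPM, and in 200M it measured 389, 766, 779 and 1007 CPM. The 200M libraries lay on both sides of the WT range. The log2 difference was -0.01 with a 95% interval from -0.31 to 0.29.

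Mog and Cldn11 were the members with an unadjusted p under 0.05. Mog had 57.8, 44.6, 48.7 and 43.8 CPM in WT and 25.4, 39.0, 47.3 and 43.7 CPM in 200M, a log2 difference of -0.32 (SE 0.145, adjusted p = 0.8712). Cldn11 had 165, 139, 150 and 143 CPM in WT and 71.5, 130.4, 141 and 139 CPM in 200M, a log2 difference of -0.30 (SE 0.130, adjusted p = 0.8712). For each gene the groups overlapped and the same mouse, 200M replicate 1, had the lowest value. The remaining estimates ran from -0.24 for Mobp to 0.16 for Olig1. Without 200M replicate 1 the estimate was -0.17 for Mog and -0.13 for Cldn11, that for Mbp was 0.20 and none was called.

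The older cohort gave the same count. In older 200M against WT hypothalamus 0 of 9 members were called, against 0.00622% of all genes, and 0 of 9 had an unadjusted p under 0.05, against 18.1% of all genes. DESeq2 called 0 members there too, and 632 genes in all. Mbp had 3057, 2305, 2553 and 2176 CPM in WT and 2585, 2651 and 3107 CPM in 200M, which overlapped. Its log2 difference was 0.15 with a 95% interval from -0.07 to 0.37. Mobp gave the highest estimate, 0.27 with a 95% interval from -0.003 to 0.54 (adjusted p = 0.3305), from 1235, 1006, 1080 and 766 CPM in WT and 1249, 1038 and 1386 CPM in 200M. The lineage factors were close to WT in the mean, with 0.10 for Olig1, 0.03 for Olig2 and 0.01 for Sox10. In all 9 members the 95% interval stayed within a log2 difference of 0.54 in either direction.

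Young heterozygous mice had estimates below WT, none of them past the threshold. All 9 estimates for young 200H against WT were negative, with a median of -0.12 against 0.003 over all genes, and the members share libraries, so their signs are not independent. Mbp measured 628, 668, 671 and 520 CPM in 200H, with 2 of the 4 libraries below every WT library and 2 inside the low end of the WT range. Its log2 difference was -0.25 (SE 0.0622, adjusted p = 0.6243). Cldn11 had 137, 130.4, 118 and 119 CPM in 200H and Mog had 39.0, 42.7, 42.5 and 36.9 CPM, and every 200H library lay below every WT library for each of that pair. Their log2 differences were -0.24 (SE 0.0698, adjusted p = 0.8853) and -0.27 (SE 0.1105, adjusted p = 0.9983). The share of all genes whose 200H and WT libraries do not overlap was not counted. With genotype means removed, Mog and Cldn11 had r = 0.916 over the 12 young libraries, so their separations are not independent. The count called by edgeR was 0 of 9, against 0.0202% of all genes, and by DESeq2 it was 0 of 9, with 1 gene called in all. At an unadjusted p under 0.05 it was 4 of 9 (Mbp, Cldn11, Mog and Cnp) against 3.93% of all genes. Leaving out 200H replicate 3 put Mbp past the threshold, at -0.29 (adjusted p = 0.02344).

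Older heterozygotes mostly had estimates of the other sign. In older 200H against WT 8 of 9 estimates were positive, with a median of 0.08, and 0 of 9 members were called by edgeR, against 0% of all genes. DESeq2 called 0 members and 5 genes in all. Sox10 was the 1 member with an unadjusted p under 0.05, where all genes gave 2.8%. It had 57.5, 44.9, 54.8 and 53.1 CPM in WT and 65.7, 61.8, 55.6 and 61.9 CPM in 200H, a log2 difference of 0.22 (SE 0.0843, adjusted p = 0.9997). Whether the heterozygous effect differed between cohorts was not tested.

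The direct comparison of 200M with 200H also gave 0 of 9 members called by edgeR, against 0% of all genes, in young and in older hypothalamus. DESeq2 called 0 members in each, and over all genes it called 0 in young and 637 in older mice. At an unadjusted p under 0.05 it was 0 of 9 in young mice against 4.6% of all genes. In older mice it was 1 of 9, Mobp, against 19.5% of all genes. Mobp was 1159, 970.6, 844 and 1004 CPM in older 200H mice and its log2 difference from 200M was 0.31 (SE 0.1131, adjusted p = 0.1827).

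**Figure D2:**
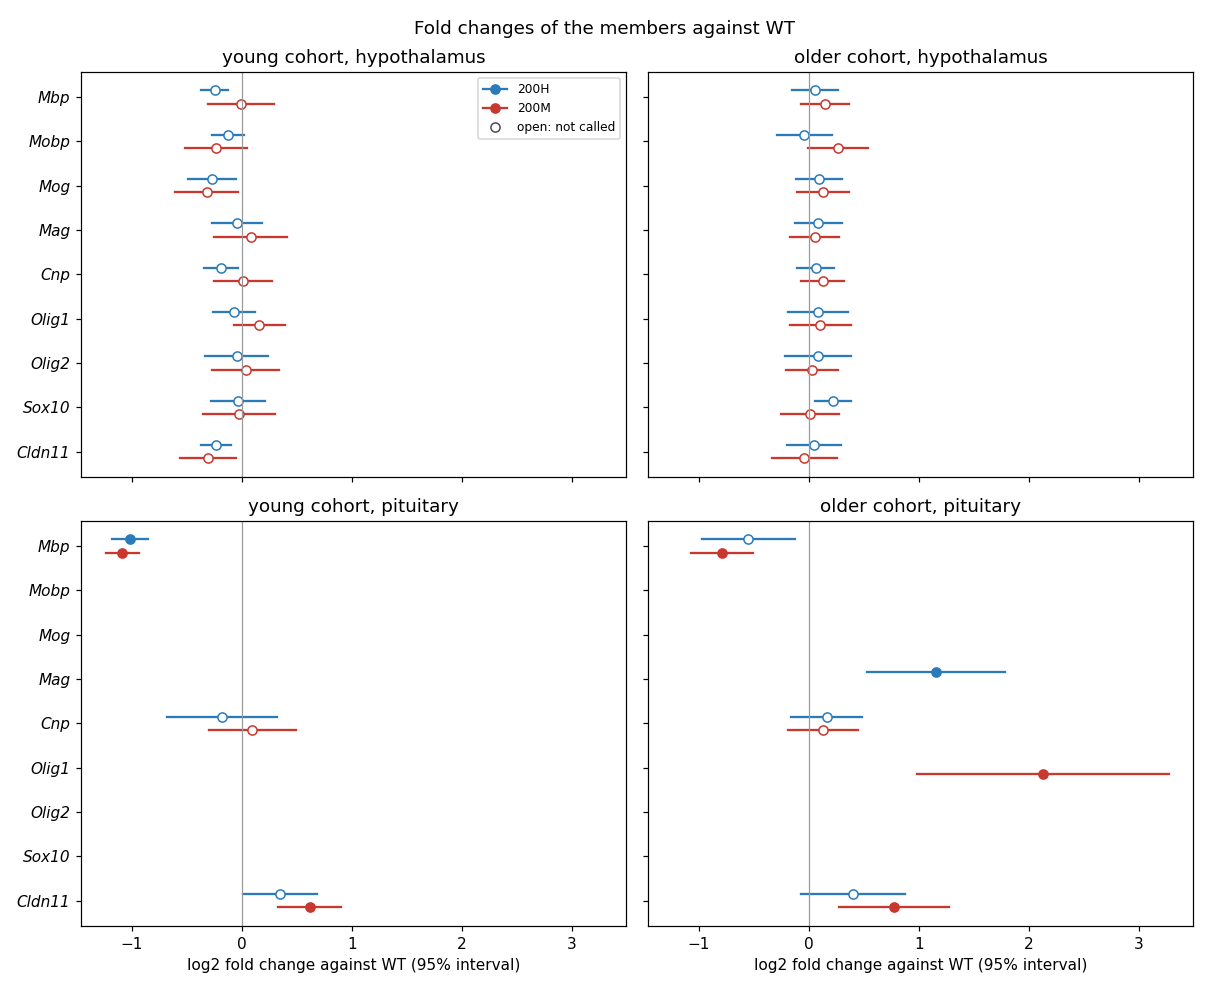
Log2 fold changes of 200H and 200M against WT for the members tested, with 95% intervals as bars, in hypothalamus and pituitary of both cohorts. Filled points passed the threshold and open points did not. Hypothalamus estimates lie within 0.32 of 0 with no filled point, whereas in pituitary Mbp lies below 0 and Cldn11 above it.

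Genes of the same pathway were read in the same fits from lists of central myelin and its cells. In young 200H against WT 1 of 14 tested genes of the myelin membrane list was lowered and 0 were raised, and the median log2 difference over that list was -0.22. For the 7 lipid enzymes of myelin the median was -0.33 and 0 were called, and for the 14 lineage regulators tested it was -0.17 and 0 were called. In young 200M against WT 0 of 14 genes of the membrane list, 0 of 7 lipid enzymes and 0 of 15 lineage regulators were called, with medians of -0.14, -0.09 and -0.08. In older 200M against WT 0 of 15, 0 of 7 and 0 of 15 were called, with medians of 0.05, 0.15 and -0.16. The 12 genes of precursors and newly formed oligodendrocytes had medians of 0.03 in young and -0.20 in older 200M mice, with 0 called in either.

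Some markers of the anterior pituitary were called in hypothalamus. Prl, which encodes prolactin, was lower in young 200M (2.32 CPM against 17.6 in WT, adjusted p = 0.006045), and Tshb was higher (7.92 against 0.227 CPM, adjusted p = 0.006419). Prl was also lower in young 200H, with a log2 difference of -2.85 (adjusted p = 0.003999). Gh was higher in older 200M (7.06 against 0.203 CPM, adjusted p = 0.002957). Their part in the values above was not tested.

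Mice of 1 genotype differed among themselves in these genes. For each library the mean of log2(CPM + 0.5) over the 9 members was taken, and the SD of its deviation from the genotype mean is given. This SD was 0.102 in WT, 0.136 in 200H and 0.436 in 200M of young hypothalamus. The 200M value came from replicate 1, which lay 0.63 below its group mean, while replicate 4 lay 0.33 above it. Over the 12 libraries the SD was 0.270, and 0.123 without 200M replicate 1. In older hypothalamus it was 0.171 in WT, 0.127 in 200H and 0.147 in 200M. Other genes varied within genotype too. Ranked among all genes with a mean of at least 1 CPM, the SD of single members in young hypothalamus lay between percentiles 35.1 (Olig1) and 69.9 (Mag). In older hypothalamus it lay between percentiles 44.1 (Cnp) and 80.3 (Olig2).

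All 9 members were at their lowest in that 1 mouse among the 4 young 200M mice. The mouse was picked out by the mean of these same 9 members, so their low values are not a separate result. How many of all genes were lowest in that mouse was not counted. Sox10 had 19.6 CPM in it against 31.2, 41.2 and 43.7 CPM in the others, Cnp had 74.3 against 119, 133 and 156, and Mag had 27.1 against 54.4, 52.3 and 67.1. Mobp had 108.8 CPM against 225, 246 and 188. The smallest gap was in Olig1, with 51.9 CPM against 54.1, 68.8 and 78.3, and Olig2 had 16.0 against 21.7, 23.5 and 26.5. The summed CPM of the 15 genes of the myelin membrane list was 1707 in it and 2826 to 2934 in the other 200M mice, and 2751 to 3110 in WT.

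Other cell markers moved in the same library. The 12 neuron markers summed to 3153 CPM in 200M replicate 1 and to 3501 to 4180 CPM in the other 200M mice. Hypothalamic neuropeptide genes summed to 383.9 CPM against 587 to 607. Markers of Schwann cells, which make the myelin of peripheral nerve, summed to 150.2 CPM against 88 to 108.7, and pituicyte markers to 317 CPM against 235 to 263. Its sums were also the highest of the 12 young libraries for markers of striatum and cortex, at 116 CPM against 96.4 to 99.0 in the other 200M mice, of endothelium, at 91.1 against 73.0 to 85.4, and of the anterior pituitary, at 70.4 against 41.9 to 47.3. For the anterior pituitary the WT libraries reached 68.4 CPM. A sum follows its most abundant genes, and in the mean log2 level over each of these lists the library was not the highest. Striatum and cortex had 2.40 in it against 2.38 to 2.55 in the other 200M mice, and endothelium had 3.32 against 3.34 to 3.59. The anterior pituitary had 1.51 against 1.145 to 1.36, and up to 1.69 in WT. The astrocyte markers, at 4817 CPM, were inside the range of the others, 4696 to 5110. The part of these cell types in the low library was not tested.

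The members varied together, though Olig1 and Olig2 did so less in older hypothalamus. Over the 12 young hypothalamus libraries, with genotype means removed, the 36 pairs of members had Pearson correlations of log2 level with a median of 0.844, from 0.419 to 0.978, and a median of 0.602 without the 2 farthest libraries. Over the 11 older libraries the median was 0.703, from -0.43 to 0.931, and 0.649 without the 2 farthest. There Olig2 had values from -0.43 with Mog to 0.475 with Olig1, and Olig1 had values from 0.0723 with Mobp to 0.475 with Olig2. Values of 1 library share its dissection, its RNA and its scaling. The mean of the members went with the mean of the myelin membrane list at r = 0.920 in young and 0.910 in older hypothalamus (0.743 and 0.865 without the 2 farthest libraries). With the neuron list it was 0.866 and 0.336.

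The genes outside the members that followed their mean most closely in hypothalamus were Fa2h, Tmem88b, Enpp2, Nkd1 and Cybc1, ranked among 10897 genes by the lower r of the 2 cohorts. Fa2h, the enzyme that hydroxylates the fatty acids of myelin lipids, had r = 0.904 over 12 young and 0.854 over 11 older libraries. Enpp2, which encodes autotaxin, had 0.914 and 0.846, and Tmem88b had 0.886 and 0.847. Nkd1 had 0.875 and 0.837, and Cybc1 had 0.848 and 0.836. In pituitary the closest were Sned1, Gm11734, Palld, Enpp2 and Kcna5, with lower values, from 0.676 to 0.690 in the cohort with the lower r. Without the 2 farthest libraries r was 0.0945 for Gm11734 and 0.306 for Enpp2 in older pituitary and 0.305 for Palld and 0.396 for Sned1 in young pituitary, so these values rest on those libraries. The member mean there also takes in 6 genes near 0 counts.

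**Figure D3:**
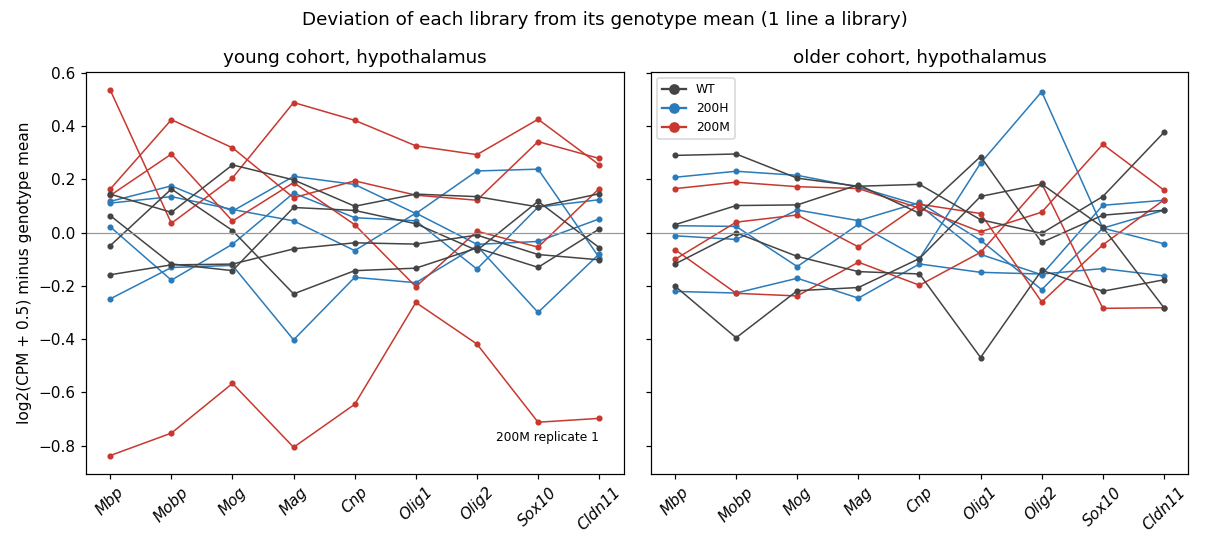
Deviation of each hypothalamus library from its genotype mean in log2(CPM + 0.5), with 1 line per library across the 9 members. In the young cohort 200M replicate 1 lies below 0 for every gene and, in the mean over the members, at -0.63, and in the older cohort no library stands apart across the genes.

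Pituitary held Mbp, Cldn11 and Cnp at levels well above the detection limit and the other 6 members at a handful of counts. Young WT Mbp measured 60.0 ± 2.46 CPM (SD, n = 3), Cldn11 9.49 ± 1.30 and Cnp 5.27 ± 0.672. The WT mean in hypothalamus, normalised apart from pituitary, was 12.3 times as high for Mbp, 15.7 times for Cldn11 and 22.8 times for Cnp in young mice, and 40.0, 20.2 and 26.6 times in older mice. The defining oligodendrocyte genes were near 0. Over the young WT libraries together there were 11 reads of Mobp, 3 of Mog, 9 of Mag, 10 of Olig1, 5 of Olig2 and 7 of Sox10. Mog had 0 counts in the 4 young 200H libraries, and at their summed depth a count of 0 allows up to 0.0716 CPM, taking 3 counts over the group as the floor. That limit covers counting error only.

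**Figure D4:**
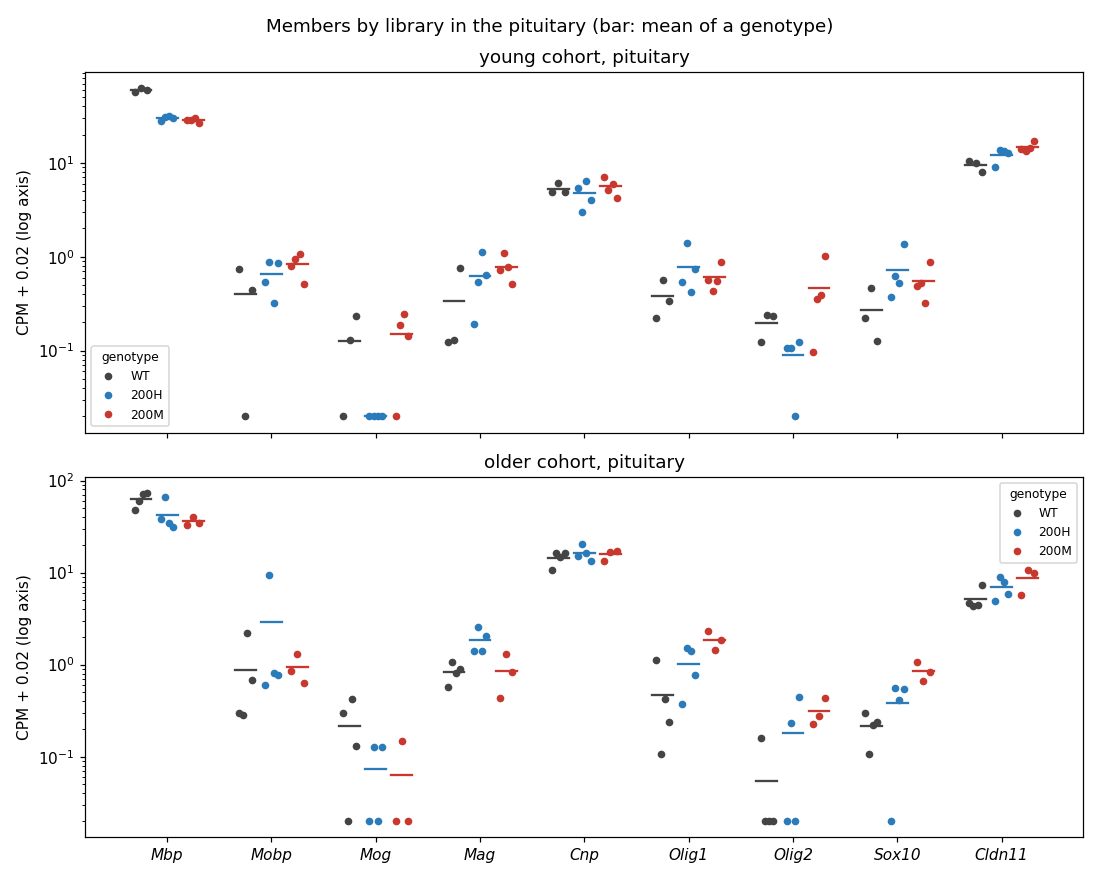
CPM + 0.02 of the 9 genes in each pituitary library, by cohort and genotype, on a log axis. Mbp, Cldn11 and Cnp lie above 2 CPM in every library, while most values of the other 6 genes lie under 2 CPM, with the Mobp value of 9.49 in older 200H replicate 2 the highest of them.

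Mbp was lower in mutant pituitary. In young mice it measured 57.5, 62.4 and 60.3 CPM in WT, 28.1, 30.6, 31.3 and 29.7 CPM in 200H, and 28.6, 28.5, 30.2 and 26.4 CPM in 200M. No mutant library reached the lowest WT value and the mutant genotypes overlapped. The fold for 200M against WT was 0.472, a log2 difference of -1.08 (SE 0.0769, adjusted p = 2.243e-07), and for 200H against WT it was 0.495, a log2 difference of -1.02 (SE 0.0835, adjusted p = 7.464e-06). These 2 comparisons share the WT libraries. Between 200M and 200H the log2 difference was -0.07 with a 95% interval from -0.22 to 0.08.

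Older mice had the same direction for 200M. Mbp measured 47.3, 59.7, 72.1 and 73.0 CPM in WT and 33.1, 40.0 and 35.0 CPM in 200M, and the groups did not overlap. The fold was 0.58, a log2 difference of -0.79 (SE 0.1433, adjusted p = 0.002373). In older 200H it was 38.5, 66.5, 34.5 and 31.0 CPM, with replicate 2 inside the WT range and the others below it. The log2 difference was -0.55 (SE 0.2162, adjusted p = 0.1248), which missed the threshold, and without 200H replicate 2 it was -0.86 (adjusted p = 0.003208). Mobp, at 89 counts or 9.49 CPM in that same library against 0.582, 0.793 and 0.742 CPM in the other 200H mice, was also at its highest there.

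Cldn11 moved the other way. Young WT pituitary had 10.5, 9.90 and 8.04 CPM, 200H had 9.12, 13.7, 13.4 and 12.6 CPM, and 200M had 14.0, 13.5, 14.3 and 17.0 CPM. Every 200M library was above every WT library, and 200H overlapped both. The fold for 200M against WT was 1.53, a log2 difference of 0.62 (SE 0.1461, adjusted p = 0.007034). For 200H it was 1.27, a log2 difference of 0.35 (SE 0.1724, adjusted p = 0.2258).

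In older pituitary Cldn11 had 4.69, 4.29, 4.40 and 7.22 CPM in WT and 5.65, 10.6 and 9.82 CPM in 200M, and the groups overlapped. The fold was 1.71, a log2 difference of 0.77 (SE 0.2542, adjusted p = 0.0482). That call was lost in 5 of the 7 fits that each left out 1 library (200M replicates 2 and 3 and WT replicates 1, 2 and 3), with adjusted p up to 0.2245 (without 200M replicate 2), and with DESeq2 (adjusted p = 0.06011). For 200H against WT the log2 difference was 0.40 (SE 0.2408, adjusted p = 0.3266), from 4.89, 8.85, 7.93 and 5.83 CPM.

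Cnp showed no difference past the threshold. Young pituitary had 4.91, 6.05 and 4.86 CPM in WT and 7.06, 5.16, 6.00 and 4.20 CPM in 200M, with a 95% interval of the log2 difference from -0.30 to 0.50. Older pituitary had 10.8, 16.5, 14.8 and 16.2 CPM in WT and 13.4, 16.9 and 17.0 CPM in 200M, with an interval from -0.19 to 0.44.

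The low members passed the filter on counts in some older comparisons. Olig1 was called in older 200M against WT at 4.36 times the WT level (log2 difference 2.13, SE 0.5839, adjusted p = 0.02203), on 8, 1, 2 and 2 counts in WT and 11, 11 and 9 in 200M. In CPM that was 1.10, 0.0876, 0.400 and 0.219 against 2.30, 1.42 and 1.84. The call was lost without 200M replicate 1 (adjusted p = 0.08905) or replicate 3 (adjusted p = 0.07019), and Olig1 passed the filter on counts in only 4 of the 7 fits that each left out 1 library. Mag was called in older 200H against WT at 2.22 times the WT level (log2 difference 1.15, SE 0.3207, adjusted p = 0.03472), from 0.552, 1.05, 0.801 and 0.875 CPM in WT and 1.40, 2.56, 1.39 and 2.01 CPM in 200H. That call was lost with DESeq2 (adjusted p = 0.108) and in 6 of 8 fits without 1 library, namely 200H replicates 2 and 4 and each WT replicate, with adjusted p from 0.06022 to 0.106. In 200M the Mag values, 0.419, 1.29 and 0.818 CPM, overlapped WT. A gene at this level passes the filter partly through the group in which it is high.

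Counted over the genes that could be tested, edgeR called 2 of 3 members in young pituitary 200M against WT, against 21.5% of all genes, and 1 of 3 in 200H against WT, against 12.3%. In older pituitary it called 3 of 4 in 200M, against 21.4%, and 1 of 4 in 200H, against 12.2%. The older counts include Olig1 in 200M and Mag in 200H, which passed the filter partly through the group in which they are high. They are therefore not comparable with the share over all genes. In older pituitary DESeq2 called 2 members in 200M and 0 in 200H. Between 200M and 200H it called 0 of 3 in young and 0 of 5 in older pituitary, against 0.0383% and 0.121%. DESeq2 also called 0 members there. At an unadjusted p under 0.05 there were 0 in young pituitary, against 5.92% of all genes, and 1, Mag, in older pituitary, against 10.6%. Most members could not be tested in pituitary, so these counts do not describe the set.

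The 200M effects in pituitary and hypothalamus were then compared in 1 fit, with the difference between tissues as the term tested. The labels do not tie the tissues to animals, and libraries of both tissues may come from the same mice, which the fit treats as independent. For Mbp the pituitary effect was lower than the hypothalamus effect by 1.08 on the log2 scale in young mice (difference -1.08, SE 0.2301, adjusted p = 0.002172). In older mice the difference was -0.93 (SE 0.1994, adjusted p = 0.003627). For Cldn11 it was 0.92 in young mice (SE 0.2292, adjusted p = 0.008315) and 0.82 in older mice (SE 0.3097, adjusted p = 0.0748). Olig1 and Sox10 passed the threshold in older mice, at 2.04 (SE 0.6167, adjusted p = 0.02903) and 2.07 (SE 0.6175, adjusted p = 0.02707), and in each the pituitary side rested on few reads. Sox10 failed the filter on counts in older pituitary and could not be tested there by itself, and it entered this fit through its level in hypothalamus. Sox10 had 2, 1, 1 and 2 counts in older WT pituitary and 5, 5 and 4 in 200M. The calls for Olig1 and Sox10 were both lost without pituitary 200M replicate 3 (adjusted p = 0.06426 and 0.05978), 200M replicate 1 (0.08722 and 0.08248) or WT replicate 2 (0.1025 and 0.09214), and that for Olig1 also without WT replicate 4 (0.06292). Cnp had a difference of 0.10 in young and 0.0003 in older mice. The share of all genes called was 10.5% in young and 17.5% in older mice.

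Genes of the same pathway moved in both directions in 200M pituitary, where 21.5% of all genes in young and 21.4% in older mice were called. In the myelin membrane list 2 of 9 tested genes rose in young and 1 of 6 in older mice, with 0 lowered. Omg, the oligodendrocyte-myelin glycoprotein, which neurons also make, rose by 0.64 in young (adjusted p = 0.005569) and 1.10 in older mice (adjusted p = 0.0006613) on the log2 scale, and Trf, which encodes transferrin, by 1.17 in young mice. Among lipid enzymes Ugt8a, which makes galactosylceramide, rose by 1.497 in young (adjusted p = 1.225e-05) and 0.82 in older mice (adjusted p = 0.02038), and Elovl7, a fatty acid elongase, fell by 1.20 and 1.01.

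Among lineage regulators 2 of 11 rose and 3 fell in young mice, and 2 of 10 rose and 2 fell in older mice. Sox5 rose by 0.58 and 0.53 and St18 by 0.41 and 0.78. Tcf7l2, an effector of Wnt signalling, fell by 0.63 and 0.69, and Id2, an inhibitor of helix-loop-helix factors, fell by 0.66 and 0.73. In the precursor list 4 of 8 rose in young and 4 of 7 in older mice, with medians of 0.54 and 0.52 and 0 lowered. Among these Lhfpl3 rose by 0.67 and 0.68 and Cspg5, a proteoglycan shared with neurons, by 0.74 and 1.62. Over all genes the medians were 0.002 and -0.01. Of 11 genes for myelination signals 2 rose and 1 fell in young mice and 3 rose and 1 fell in older mice.

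Markers of other cells also differed between 200M and WT pituitary, where 21.5% of all genes in young and 21.4% in older mice were called. The 10 astrocyte genes summed to 152 to 189 CPM in young WT and 256 to 284 CPM in young 200M, with 3 of 10 raised, and to 170 to 202 and 249 to 281 CPM in older mice, with 5 of 9 raised. Slc1a2, a glutamate transporter, rose by 1.00 in young and 1.14 in older mice. The 12 neuron genes summed to 948 to 1026 CPM in young WT and 1017 to 1195 CPM in 200M, with 5 of 10 tested raised and 2 lowered, and to 654 to 744.5 and 921 to 1007 CPM in older mice, with 8 of 11 raised and 1 lowered. The 8 microglia and macrophage genes summed to 40.2 to 49.0 CPM in young WT and 59.5 to 71.7 CPM in 200M, with 3 of 7 tested raised, and to 97.0 to 119 and 129 to 187 CPM in older mice, with 1 of 8 raised. The 4 pituicyte genes summed to 95.5 to 115 CPM in young WT and 127 to 151 CPM in 200M. In older pituitary this list varied more between libraries. The SD of its mean log2 level, with genotype means removed, was 0.629 in older and 0.0819 in young pituitary.

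In the peripheral myelin and Schwann list 2 of 5 tested genes rose and 1 fell in young mice, and 2 of 6 rose and 1 fell in older mice. Pmp22, a peripheral myelin protein also made by many other cells, rose by 0.53 and 0.47. Of the 10 anterior pituitary genes 5 were lowered and 0 raised in young mice, and 3 were lowered and 1 raised in older mice. In young pituitary these genes summed to 161400 to 184900 CPM in WT and 66350 to 88890 CPM in 200M. The part of these cell types in the Mbp and Cldn11 values was not tested.

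**Figure D5:**
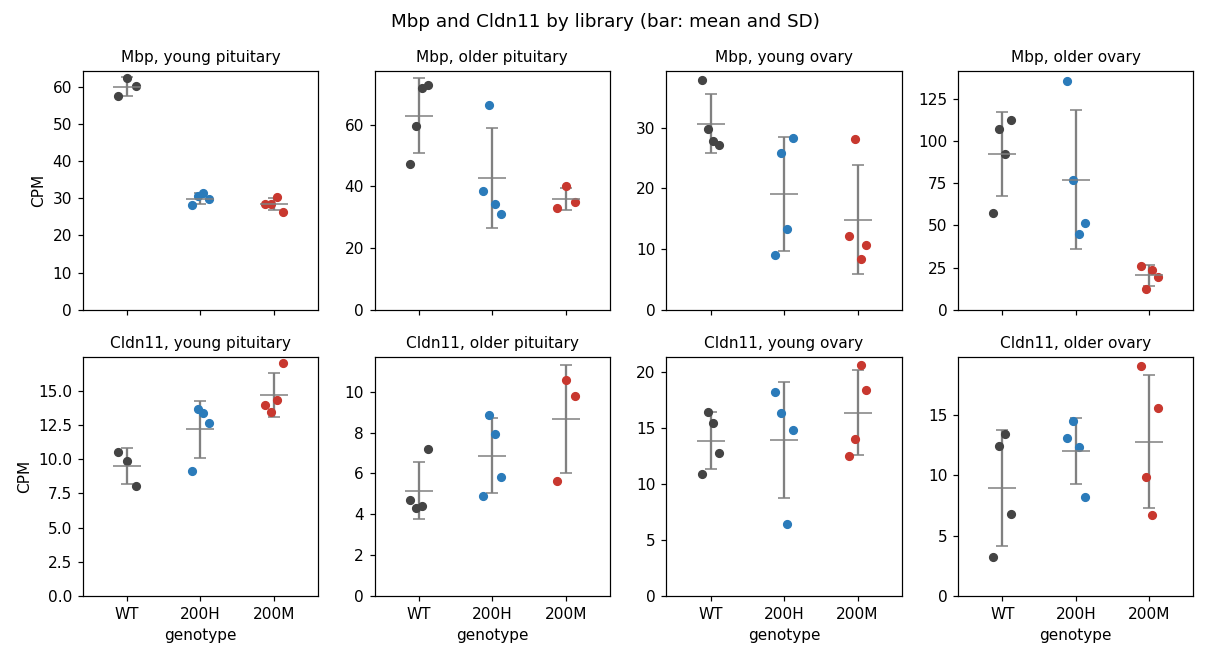
CPM of Mbp (top) and Cldn11 (bottom) in each pituitary and ovary library, by cohort and genotype, from 0, with the mean and SD as bars. Mbp is below every WT library in all young mutant pituitaries and in all older 200M pituitaries and ovaries, and Cldn11 is above every WT library only in young 200M pituitary.

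Mbp was lower in older 200M ovary, and in young ovary the difference missed the threshold. Older WT ovary had 57.4, 107.1, 92.3 and 112.8 CPM, 200H had 135.6, 76.7, 45.1 and 51.4 CPM, and 200M had 26.2, 12.2, 23.6 and 19.5 CPM. Every 200M library lay below every WT library, and 200H reached above and below the WT range. The fold for 200M against WT was 0.223, a log2 difference of -2.17 (SE 0.2701, adjusted p = 0.007857).

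Young ovary had 37.8, 29.7, 27.9 and 27.2 CPM of Mbp in WT, 8.99, 25.9, 13.3 and 28.3 CPM in 200H and 12.1, 28.1, 8.40 and 10.7 CPM in 200M. One 200M library, replicate 2, was inside the WT range and the other 3 were below it. The log2 difference between 200M and WT was -1.01 (SE 0.2678, adjusted p = 0.06459), and without 200M replicate 2 it was -1.52 (adjusted p = 2.082e-05). Differences of 200H from WT in ovary were not tested.

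Of the other members, Cldn11 measured 13.9 ± 2.53 CPM in young WT ovary and 16.4 ± 3.79 in 200M (SD, n = 4), and 8.97 ± 4.80 and 12.8 ± 5.53 in older ovary, with log2 differences of 0.26 (adjusted p = 0.5607) and 0.53 (adjusted p = 0.5939). Cnp had log2 differences of -0.10 in young and 0.59 in older ovary, neither past the threshold. Mag in older ovary had 0.613, 0.481, 0.639 and 0.821 CPM in WT and 2.84, 0.959, 1.75 and 1.59 CPM in 200M, which did not overlap, with a log2 difference of 1.48 (SE 0.3696, adjusted p = 0.07399), and without 200M replicate 2 it was 1.66 (adjusted p = 0.04556). Olig2 was not counted in the older WT ovary, where 0 counts over the group allow up to 0.0625 CPM. The members called were 0 of 3 tested in young ovary by edgeR, against 2.58% of all genes, and 0 by DESeq2. At an unadjusted p under 0.05 there was 1, Mbp, against 16.2% of all genes. In older ovary edgeR called 1 of 4, against 2.71%.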

How the data were processed

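Poly(A) or ribosomal-RNA-depleted libraries were aligned by the authors with STAR 2.7.1a to mm10 (GRCm38). Older hypothalamus and pituitary were counted with htseq-count (HTSeq 0.9.1) and all other libraries with featureCounts, by strand in the young cohort only. The deposited values are raw counts per gene and library, in 18 tables that also hold the authors' fold changes and p-values, which were not used. A further 3 count columns whose headers repeat another column were not used. Of the 55964 identifiers 55705 were paired with a symbol, from the deposited data or, failing that, from a reference list of gene names.

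Genotype pairs were tested within tissue and cohort by edgeR 4.0.16 (R 4.3.3) with its quasi-likelihood F test, TMM scaling, filterByExpr and Benjamini-Hochberg adjustment over all genes tested, and called at an adjusted p under 0.05. An SE is the log2 fold change over the root of F, and a 95% interval takes that SE as normal. Levels are TMM-scaled CPM within each tissue of a cohort, and CPM per kb divides by the summed exon length. Where groups are said not to overlap, the share of all genes that do not overlap was not counted. Alternatives were DESeq2 1.42.0, other filters, scaling, pseudocount, all 3 genotypes together, a replicate block and leaving out each library. The fits were tested on simulated data. Precision rests on the counts behind each value, which the text gives for the low members.

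Groups came from the sample labels. One young WT pituitary column could be mapped to its group but not to 1 mouse. The 99 pairs of libraries within groups all differed by more than sampling noise. The members and gene lists were chosen with earlier results of these data known. Besides the members and Zeb1, named genes are the up to 4 called genes with the smallest p of each list and comparison (2 where none was called), and the 5 genes most correlated with the members. Some genes of the lists are not reported here.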

Additional observations from a re-analysis of the deposited data

Results flagged for a closer look

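In groups of 4 libraries, a library was noted when its gap to the nearest other took a larger share of its group's range than Dixon's 95% critical value. Of 91 groups tested 5 had one, and chance alone gives about 5% of groups. Cldn11 was lowest in young hypothalamus 200M replicate 1, at 71.5 CPM, and highest in older pituitary WT replicate 4, at 7.22 CPM. Mobp was highest in older pituitary 200H replicate 2, at 9.49 CPM. Olig1 was lowest in young hypothalamus 200H replicate 4, at 47.3 CPM, and Olig2 was highest in older hypothalamus 200H replicate 4, at 59.6 CPM, where the other 200H libraries had 36.8, 35.4 and 36.9 CPM.

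The effect of 200M differed between pituitary and hypothalamus, by a test of the difference itself, for Mbp in young (-1.08) and older mice (-0.93), for Cldn11 in young mice (0.92), and for Olig1 (2.04) and Sox10 (2.07) in older mice, each on the log2 scale with pituitary minus hypothalamus. Olig1 and Sox10 rest on few reads in pituitary, Sox10 failed the filter on counts in pituitary by itself, and each call was lost without pituitary 200M replicate 1, 200M replicate 3 or WT replicate 2.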

How the results depend on the processing

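None of 101 member fold changes had its direction reversed while called, and 14 changed side of the threshold under some alternative. Total-count scaling, chosen after seeing the data, changed no member call. Under it the median log2 difference of all genes was 0.12 and 0.13 in young and 0.16 and 0.16 in older pituitary (200M and 200H against WT). With TMM scaling those medians were 0.002 and 0.007 in young and -0.01 and -0.008 in older pituitary. With no filter on counts the members called went from 0 to 1 in young hypothalamus 200H against WT, young ovary, older hypothalamus 200M against 200H and older pituitary 200M against 200H, and from 1 to 3 in older pituitary 200H against WT, where DESeq2 gave 0. With all 3 genotypes in the fit older ovary had 2. Leaving out 1 library gave 0 to 1 members called in young hypothalamus 200H against WT, in young ovary and in older pituitary 200H against WT, 1 to 2 in older pituitary 200M against WT and in older ovary, and 1 to 4 for the difference between tissues in older mice. The spread of the member mean ran from 0.123 to 0.286 in young hypothalamus, from 0.0624 to 0.101 in young pituitary (lowest without 200H replicate 1) and from 0.162 to 0.301 in older pituitary without 1 library. With a pseudocount of 2 it was 0.0418 in young and 0.179 in older pituitary, against 0.0943 and 0.282 with 0.5. Same-numbered libraries were not treated as pairs in the main fits. Of 64 same-numbered pairs 13 had a correlation of deviations over 0.1 (-0.64 to 0.44). No correlation was taken between differently numbered libraries, so these values cannot decide whether the numbers pair mice. With the replicate block 1 member (Mbp) was called in young pituitary 200M against WT, where Cldn11 had 0.42 (adjusted p = 0.1597), and 0 in older ovary, where Mbp had -2.17 (adjusted p = 0.05526). In young pituitary the block fit kept only the 2 same-numbered pairs of 200M and WT libraries. Its values there therefore differ from the main fit in the libraries used as well as in the block. Genes called among all genes under the block went from 497 to 150 in young ovary, 482 to 101 in older ovary and 3 to 11 in young hypothalamus 200M against WT. DESeq2 called 632 genes in older hypothalamus 200M against WT, where edgeR called 1, and 637 against 200H, where edgeR called 0. The cause of these changes was not tested. Members under about 1 CPM in pituitary and ovary rest on few reads, and most of them failed the filter on counts.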
